A study of Mus musculus with 6 samples.

Results

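The loci of 10 mouse genes that maintain epithelial identity were examined in ATAC-seq peak lists from NMuMG cells, an epithelial line from normal mouse mammary gland. The genes were Grhl1, Grhl2, Grhl3, Ovol1, Ovol2, Elf3, Ehf, Esrp1, Esrp2 and Klf5. A locus was taken as the 100 kb to either side of the 5′ end of the gene. A region was a peak of at least 150 bp, with peaks closer than 1000 bp merged, and the union of the 3 lists held 81 such regions at the 10 loci, of 39435 in the genome. No region belonged to 2 of the loci.

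ATAC-seq marks accessible DNA by the insertion of sequencing adapters with the transposase Tn5. Cells were first kept for 6 h without serum and, per the study, without insulin. They were then given either TGFβ1 (5 ng/ml, harvested after 2 h or 12 h) or vehicle (harvested after 2 h). Each of these 3 conditions comprised 2 biological replicates, 6 samples in all. Since the only vehicle is that of 2 h, the length of TGFβ treatment and the time without serum cannot be told apart at 12 h. The authors merged both replicates of a condition into 1 list of reproducible peaks. The lists therefore carry no spread between replicates, no test between conditions was run, and the reads behind a peak are not given. The study lists fewer filtered reads for each 12 h library than for any vehicle or 2 h library among these 6 samples. The part of this in regions missing at 12 h was not tested. A region missing from a list may have fallen below the peak threshold rather than lost its accessibility. NMuMG is a single established line, so both replicates of a condition are cultures of the same cells.

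Grainyhead-like factors (Grhl1 to Grhl3) bind and open enhancers of epithelial genes, and the zinc finger factors Ovol1 and Ovol2 repress mesenchymal genes, among them those of ZEB factors. Elf3 and Ehf are epithelium-specific members of the ETS family of transcription factors, Klf5 is a Krüppel-like zinc finger factor of proliferating epithelia, and Esrp1 and Esrp2 are RNA-binding proteins that set the epithelial pattern of splicing. TGFβ drives mammary epithelial cells through the epithelial to mesenchymal transition (EMT), in which expression of many of these genes is known to fall.

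The 10 loci held 45 regions in vehicle, 71 at 2 h of TGFβ and 61 at 12 h. The genome-wide lists held 16765, 32548 and 33079 regions in the same order. The number at the 10 loci was thus highest at 2 h, but this did not hold when the narrower peaks of the TGFβ lists were left out. When both TGFβ lists were reduced to their widest peaks, as many as in vehicle, the loci held 45, 40 and 46 regions, and 2 h was the lowest. Of the 81 regions, 52 were distal, meaning more than 1000 bp from the 5′ end of any annotated transcript, and 29 were at a start site. Windows of all 22350 protein-coding genes gave a median of 5 regions in the union, while the 10 loci had a median of 8.5 and a range from 4 to 13.

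The course from 2 h to 12 h differed between the loci. At Klf5 the number of regions was 2 in vehicle, 7 at 2 h and 3 at 12 h. At Elf3 it was 5, 11 and 7 in that order, and at Grhl2 it was 3, 5 and 3. Ovol2 had 4, 5 and 3 regions, and was the single locus with fewer at 12 h than in vehicle. In contrast, the number at Grhl1 went from 3 to 7 to 10, so that every later list held more. Ehf had 6, 10 and 9 regions and Esrp2 had 8, 10 and 9. Grhl3 and Esrp1 had 2, 3 and 3 each, and Ovol1, the densest locus, had 10, 10 and 11. Within the 50 kb nearest to each 5′ end the 10 loci together held 23, 38 and 32 regions.

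**Figure D1:**
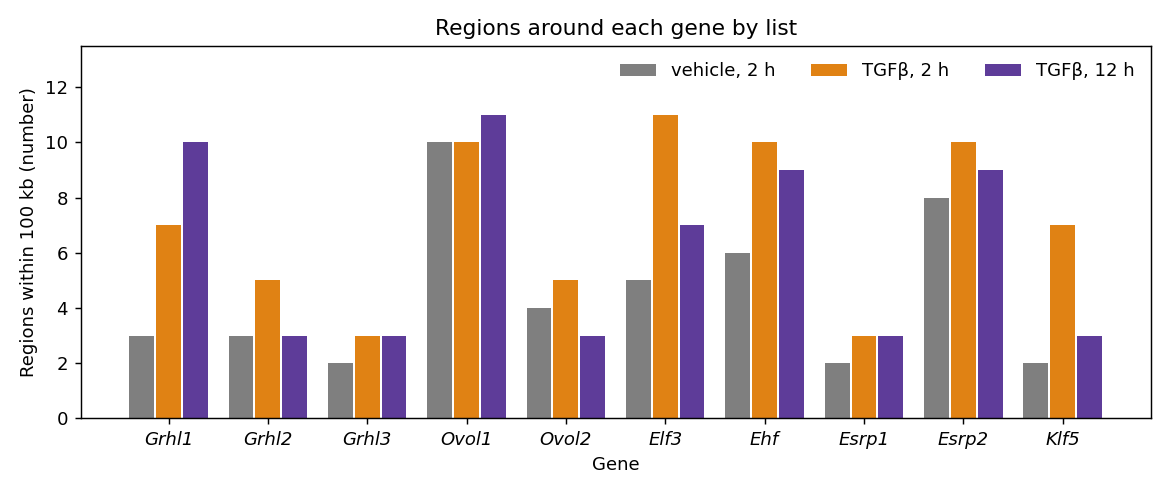
Number of regions (y axis) in the 100 kb to either side of each 5′ end, in the vehicle, TGFβ 2 h and TGFβ 12 h lists (grey, orange and purple bars). Klf5 stands out at 2 h with 7 regions against 2 and 3, and Grhl1 is the locus where the number rises at both times, from 3 to 7 to 10.

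The summed width of the regions at a locus did not always move with their number. Klf5 had 1419 bp in vehicle, which became 3754 bp after 2 h and 2187 bp after 12 h, so that 2 h was 2.65 times vehicle and 1.72 times 12 h. Esrp1 had 1093, 2815 and 2153 bp. Grhl1 had 2596, 6123 and 7260 bp and gave the highest ratio of 12 h to vehicle of the 10 loci, 2.80. Ovol2 gave the lowest, 1.05, with 2824, 3428 and 2967 bp, so that its fewer regions at 12 h covered more than those of vehicle. Grhl3, with 3 regions at either time, had 1167, 1604 and 2078 bp. Such sums rest on 1 list per condition, and they move with the number of peaks called in a list.

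The presence of each region in the 3 lists was then compared with the same over all regions of the genome. At the 10 loci 38 of 81 regions were in all 3 lists (46.9%, 95% Wilson interval 36.4 to 57.7%), beside 38.4% of all regions. Both TGFβ lists without vehicle held 14 (17.3%, 10.6 to 26.9%), beside 28.5% of all. The 2 h list alone held 13 (16.0%, 9.63 to 25.5%), beside 12.9%, and the 12 h list alone held 9 (11.1%, 5.96 to 19.8%), beside 16.3%. Vehicle and 2 h without 12 h held 6 (7.41%, 3.44 to 15.2%), beside 2.25%, and vehicle alone held 1 (1.23%), beside 1.16%. Vehicle with 12 h alone held 0, which allows a share of up to 3.70%, beside 0.388%. The intervals cover counting error only, and neighbouring regions are not independent. Within 50 kb of the 5′ ends the share in both TGFβ lists without vehicle was 27.5% (11 of 40), close to the share of all regions.

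**Figure D2:**
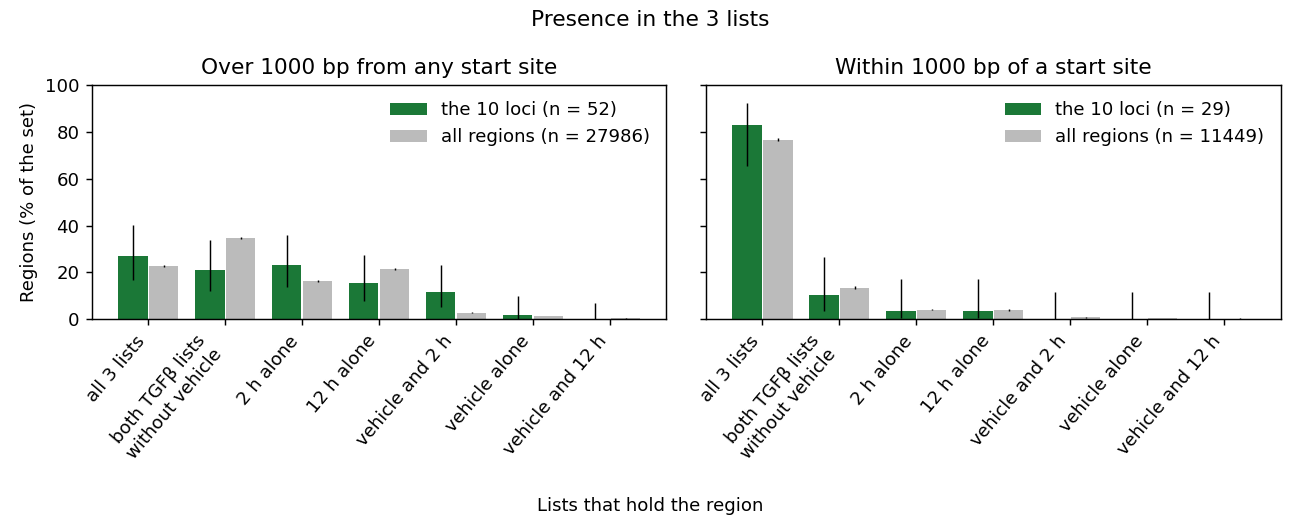
Share of regions (y axis, %) by the lists that hold them, for the 10 loci (green) and all regions (grey), split into regions over 1000 bp from any start site (left) and those within 1000 bp of one (right). Lines are 95% Wilson intervals, for counting error only. On the left the 10 loci lie above all regions for vehicle and 2 h (6 of 52, beside 2.83%). They lie below them for both TGFβ lists without vehicle (11 of 52, beside 34.7%). On the right 24 of 29 regions are in all 3 lists, beside 76.7% of all regions at start sites.

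Part of the regions listed at 2 h were not listed at 12 h. Of 71 regions of the 2 h list at the 10 loci, 19 were missing at 12 h (26.8%, 17.9 to 38.1%), beside 18.5% of all 2 h regions. Among the 27 that had been absent in vehicle, 13 were missing at 12 h (48.1%, 30.7 to 66.0%), beside 31.2% of all such regions. The number of regions in the 2 h list alone fell from 13 to 4 within 50 kb of the 5′ ends and to 2 with the shortened TGFβ lists. Klf5 had 4 of these 13 and Elf3 had 3. The other 6 were spread over Grhl2, Grhl3, Ovol1, Ovol2, Esrp1 and Esrp2 with 1 each, and Grhl1 and Ehf had 0. At least 1 was thus found at 8 of the 10 loci, beside 41.6% of all protein-coding genes. The 10 loci also had more regions of any kind, a median of 8.5 beside 5. The 4 at Klf5 were 255, 564, 330 and 520 bp wide, 1 of them 12857 bp upstream and the rest between 65420 and 86848 bp downstream of the 5′ end. Those at Elf3 were 284, 220 and 189 bp wide and lay between 52807 and 79246 bp downstream.

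A region contained the 5′ end of the gene itself at 4 of the 10 loci, Grhl1, Elf3, Esrp2 and Klf5, and did so in all 3 lists. In the genome 35.9% of protein-coding 5′ ends lay in a vehicle region, 41.4% in a 2 h region and 41.6% in a 12 h region. The region at the 5′ end of Grhl1 (chr12:25256473-25257577, first exon) had a width of 753 bp in vehicle, of 915 bp after 2 h and of 898 bp after 12 h. At Elf3 (chr1:137154774-137155922, untranslated first exon) the widths were 975, 1138 and 1149 bp, and at Esrp2 (chr8:108660246-108662303, shared with the start of 1810019D21Rik) they were 1849, 2048 and 1926 bp. At Klf5 (chr14:99697428-99698670) they were 1226, 1221 and 1138 bp. Each of the 4 carried a vehicle peak score of 1000, the upper limit of that column, as did 69.8% of all vehicle regions at start sites that were kept at 12 h. Coordinates throughout are those of NCBIM37 (mm9).

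No peak of any width or list touched the 5′ ends of Grhl2, Grhl3, Ovol1, Ovol2, Ehf and Esrp1. Esrp1 was the most isolated, with its nearest region at 64374 bp (vehicle), 63122 bp (2 h) and 57736 bp (12 h). The 12 h region was a peak of 156 bp, and the nearer vehicle region lay at the start of another gene, Dpy19l4. The nearest regions of Ovol1 and Ovol2 also belonged to neighbours, Gm962 at 6532 bp and Csrp2bp at 36386 bp in vehicle, and both were in all 3 lists. The sequence around these uncovered ends is known in the assembly, with 0 undetermined bases in the stretch of 501 bp centred on each of the 10 ends.

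Grhl2 and Ehf had regions at other points of the gene. A region of all 3 lists (chr15:37247490-37248354; 738, 865 and 699 bp wide in vehicle, at 2 h and at 12 h) lay 84699 bp downstream of the 5′ end of Grhl2, over the start of a shorter annotated transcript of that gene. At Ehf a 2 h region of 384 bp (chr2:103142223-103142606) lay 829 bp inside the gene, and a 12 h region of 389 bp (chr2:103142686-103143074) lay 361 bp inside it, while the nearest vehicle region was 9201 bp away. The 2 peaks did not overlap and were 79 bp apart. They were joined because they lay closer than 1000 bp, and of 58 regions found in several lists at the 10 loci this was the only one whose lists did not overlap.

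**Figure D3:**
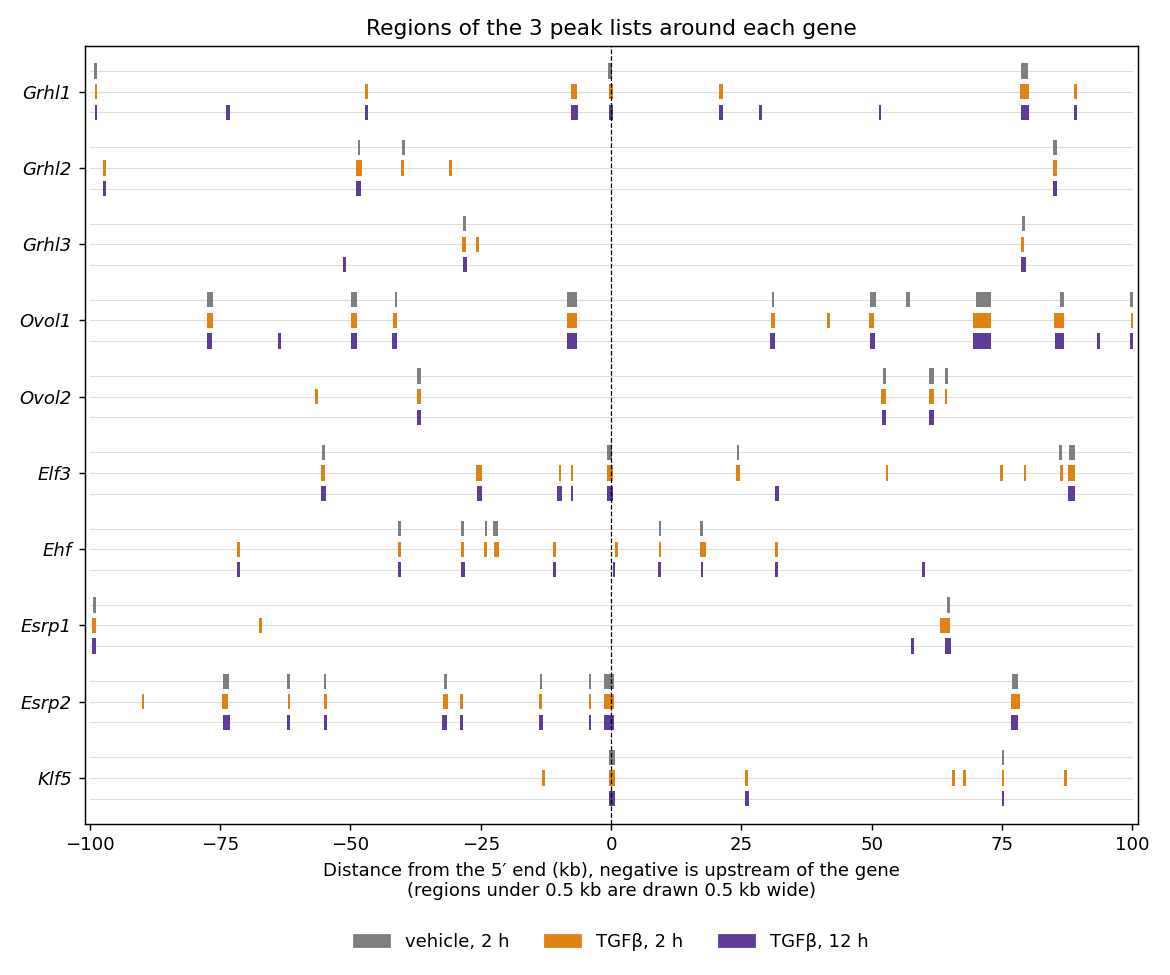
Regions of the vehicle, TGFβ 2 h and TGFβ 12 h lists (grey, orange and purple boxes, drawn at least 0.5 kb wide) by distance from the 5′ end of each gene (x axis, kb, negative upstream in the direction of transcription). The dashed line marks the 5′ end, which is covered at Grhl1, Elf3, Esrp2 and Klf5 in all 3 lists. Upstream of Ehf, 2 neighbouring grey and orange boxes have no purple box below them, and downstream of Klf5 and Elf3 several boxes are orange alone.

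Of the 45 vehicle regions at the 10 loci 7 were missing at 12 h (15.6%, 7.75 to 28.8%), beside 8.08% of all vehicle regions. All 7 were distal, which made 7 of 21 distal vehicle regions (33.3%, 17.2 to 54.6%), beside 15.5% of all distal vehicle regions. Of 24 vehicle regions at start sites 0 were missing, which allows a share of up to 12.5%, beside 1.70% of all vehicle regions at start sites. By locus the 7 fell to Ehf and Elf3 with 2 each and to Grhl2, Ovol1 and Ovol2 with 1 each. These are 5 of the 10 genes, and 15.9% of all protein-coding genes had at least 1 such region within 100 kb. The 2 sets differ in how many vehicle regions could go missing. Each of the 10 loci had at least 2, with a median of 3.5, while 77.1% of all protein-coding genes had 1 or more, with a median of 2. When each TGFβ list was shortened to its widest peaks, as many as in vehicle, 12 of 45 (26.7%) were missing at 12 h, and 27.6% of all vehicle regions were, so the excess over all regions was absent there.

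The pair at Ehf lay between genes, upstream of the start. The first (chr2:103165030-103166042, 21595 bp upstream) was 840 bp wide in vehicle and 951 bp at 2 h, with a vehicle score of 1000, and had no 12 h peak. The second (chr2:103167254-103167700, 23819 bp upstream) was 446 bp in vehicle and 386 bp at 2 h, with a score of 598, and was likewise not listed at 12 h. Regions on either side of the pair were listed at 12 h. One 28102 bp upstream of the 5′ end was 620, 626 and 731 bp wide in vehicle, at 2 h and at 12 h, and one 10588 bp upstream was absent in vehicle and 449 and 382 bp wide with TGFβ. The former was the nearest 12 h region to both of the pair, 5494 bp from the first and 3836 bp from the second.

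At Elf3 a region 23983 bp downstream of the 5′ end (chr1:137130427-137131066) was 290 bp in vehicle and 640 bp at 2 h, scored 923, and was missing at 12 h. The other (chr1:137068633-137069111, 85938 bp downstream) was 479 bp in vehicle and 173 bp at 2 h, scored 789, and lay 1179 bp from the edge of a region that was kept in all 3 lists. With a merging distance of 2000 bp that region joins its neighbour. The region at Grhl2 (chr15:37122619-37123216, 39575 bp upstream, between genes) was 565 bp in vehicle and 396 bp at 2 h, with a score of 778, and its nearest 12 h region was 7723 bp away.

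At both Ovol loci the missing region lay inside an intron of a neighbouring gene. At Ovol2 this was Snx5 (chr2:144093421-144093845, 64037 bp downstream), 250 bp wide in vehicle and 425 bp at 2 h, with a score of 718. At Ovol1 it was Snx32 (chr19:5503289-5503949, 56626 bp downstream), 661 bp wide in vehicle with a score of 601, and it was the single vehicle region at the 10 loci missing at 2 h as well. No peak of any width touched one of the 7 regions at 12 h. Their median vehicle score was 778, near the 731.5 of the 14 distal vehicle regions that were kept, whereas over the genome the missing distal regions scored 690 and the kept ones 898.

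The sequences around a motif match in regions of this kind are given on the plus strand of NCBIM37, to show DNA of the regions that were in vehicle and 2 h but not 12 h. Capitals mark the match, which is TGACTCA, the site of AP-1 (FOS and JUN dimers), or its reverse complement in all but the second, where they mark CACCTG, the E-box bound by SNAI and ZEB repressors. The 107 or 106 bases comprise 50 bases on either side. The AP-1 matches lie in peaks of both vehicle and 2 h, and the E-box at Grhl2 lies in a part of its region that was listed in vehicle alone.
Grhl2, AP-1 match, chr15:37122690-37122796: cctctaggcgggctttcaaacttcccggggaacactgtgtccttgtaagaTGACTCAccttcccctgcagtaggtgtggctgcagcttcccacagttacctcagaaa
Grhl2, E-box match, chr15:37123076-37123181: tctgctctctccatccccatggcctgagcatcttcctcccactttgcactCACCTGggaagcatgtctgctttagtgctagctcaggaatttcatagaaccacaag
Ovol2, AP-1 match, chr2:144093506-144093612: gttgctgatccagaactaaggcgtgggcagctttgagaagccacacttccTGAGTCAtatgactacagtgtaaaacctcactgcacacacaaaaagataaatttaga
Elf3, AP-1 match, chr1:137130786-137130892: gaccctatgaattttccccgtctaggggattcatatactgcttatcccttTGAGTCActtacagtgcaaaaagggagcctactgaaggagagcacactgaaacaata
Ehf, AP-1 match, chr2:103165721-103165827: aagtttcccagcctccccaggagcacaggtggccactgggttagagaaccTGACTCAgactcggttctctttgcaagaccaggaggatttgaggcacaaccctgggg

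The stretch at Ehf also holds an E-box, on the minus strand at chr2:103165746-103165751, in lower case above. For comparison, the region of both TGFβ lists nearest to Klf5 (chr14:99723592-99724280, 25682 bp downstream, 636 bp at 2 h and 689 bp at 12 h, not in vehicle) holds an AP-1 match and an E-box at chr14:99723920-99723925. The 2 h region nearest to Grhl3 (chr4:135155016-135155326, 25471 bp upstream, 311 bp, in that list alone) holds an AP-1 match. Their stretches are shown in the same way, with the AP-1 match in capitals.
Klf5, AP-1 match, chr14:99723899-99724005: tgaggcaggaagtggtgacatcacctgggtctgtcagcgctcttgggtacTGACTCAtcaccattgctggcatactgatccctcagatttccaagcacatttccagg
Grhl3, AP-1 match, chr4:135155019-135155125: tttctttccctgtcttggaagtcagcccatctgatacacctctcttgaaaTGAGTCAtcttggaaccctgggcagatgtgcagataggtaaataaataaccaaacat

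Exact matches to 7 motifs were counted on both strands in the 500 bp around the centre of the 52 distal regions. AP-1 (TGACTCA) matched in 26 of the 52, beside 46.0% of all distal regions, and the E-box (CACCTG) in 20, beside 30.0%. KLF motifs (GGGNGTGG) matched in 9, beside 15.9%, and ETS motifs (CNGGAAGT, the class of Elf3 and Ehf) in 7, beside 10.5%. The grainyhead-like motif (AACCNGTT) matched in 2, beside 3.72%, at Grhl1 and at Ovol1, and the match at Ovol1 lay in the window but past the edge of its narrow region. The OVOL motif (CCGTTA) and the SMAD palindrome (GTCTAGAC) matched in 0, beside 2.94% and 1.00%. A match describes the letters of the window and does not show that a factor binds, and on these counts the 52 regions were close to distal regions in general.

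Split by list, AP-1 matched in 4 of the 6 distal regions of vehicle and 2 h, where 26.7% of all such regions had a match. It matched in 7 of the 12 of the 2 h list alone, beside 33.5%, in 5 of the 11 of both TGFβ lists, beside 51.6%, and in 6 of the 14 of all 3 lists, beside 48.6%. In the 12 h list alone AP-1 matched in 4 of 8, beside 49.1%, and in vehicle alone in 0 of 1, beside 12.2%. Among the matches of the 2 h list alone, that at Esrp2 lay past the edge of its region. The 2 regions of vehicle and 2 h without an AP-1 match were the outer one at Elf3 and the second one at Ehf. Each of these groups is small, and no test was made.

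Regions found in vehicle and matched to a single TGFβ region were mostly wider with TGFβ. At the 10 loci 32 of 44 were wider at 2 h (72.7%, 58.2 to 83.7%), beside 82.8% of all matched regions, with a median difference of 141 bp. At 12 h 26 of 38 were wider (68.4%, 52.5 to 80.9%), beside 83.7%, with a median difference of 170.5 bp. Widths were thus greater in most regions at the 10 loci, as over the genome, where the median differences were 148 and 175 bp. The share of wider regions was lower at the 10 loci, and at 12 h its interval lay below the share of all matched regions. Among distal regions 14 of 20 were wider at 2 h and 9 of 14 at 12 h, beside 85.6% and 82.6%. At start sites 75.0% and 70.8% were, beside 80.6% and 84.5%. No test was made.

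Wide differences were found at distal regions and at start sites of neighbouring genes. The start of Dpy19l4, 63122 bp from Esrp1, had the largest from vehicle to 2 h, with 536 bp in vehicle, 1792 bp after 2 h and 1098 bp after 12 h. A region 47862 bp upstream of Grhl2 (chr15:37113797-37114929) was 285, 991 and 1099 bp wide in vehicle, at 2 h and at 12 h. It was the 12 h region nearest to the Grhl2 region that was missing at 12 h. At Ovol1 a region 30482 bp downstream (chr19:5529180-5530093) was 288, 772 and 899 bp wide, and the start of Rnaseh2c was 200, 705 and 893 bp. The start of Efemp2, which encodes an extracellular matrix protein and lies 85011 bp from Ovol1, was 673, 1822 and 1605 bp. In an intron of Ehf (chr2:103125251-103126354) the width was 619, 1061 and 498 bp, so it was widest at 2 h.

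**Figure D4:**
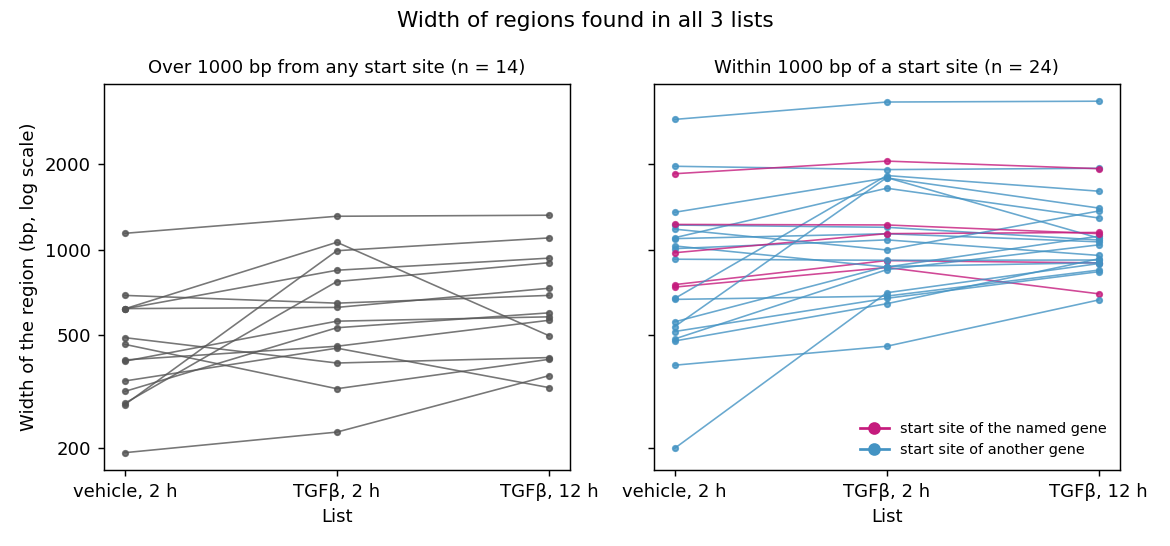
Width (y axis, bp, log scale) in the 3 lists of the 38 regions found in all of them, 14 over 1000 bp from any start site (left, grey) and 24 within 1000 bp of one (right, pink for a start of one of the 10 genes and blue for other genes). Each line is 1 region. Most lines rise from vehicle to 2 h. The region of the Ehf intron rises to 1061 bp and falls to 498 bp, and 4 of the 5 pink lines are lower at 12 h than at 2 h.

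Both TGFβ lists without vehicle held 14 regions, at Grhl1 (4), Ehf (4), Elf3 (3), Grhl2, Esrp2 and Klf5 (1 each), and 0 at Grhl3, Ovol1, Ovol2 and Esrp1. The nearest at Grhl1 (chr12:25249382-25250743, 6409 bp upstream) was also the widest of them, 1269 bp at 2 h and 1362 bp at 12 h. Another lay in a Grhl1 intron 20672 bp downstream, 790 and 687 bp wide. At Elf3 one lay 7281 bp upstream in an intron of Rnpep (chr1:137162330-137162778), 433 and 442 bp wide. At Esrp2 the single one (chr8:108689450-108689622, 28576 bp upstream) was narrow, 169 and 151 bp. At Grhl2 it was 96839 bp upstream, 596 and 595 bp wide. Of the 14, 11 were at Grhl1, Ehf and Elf3, loci that also had 10, 11 and 12 of the 81 regions. At least 1 region of this kind was found at 6 of the 10 loci, beside 62.7% of all protein-coding genes.

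The same counts were made for factors that oppose the 10 genes in EMT. A region covered the 5′ end of Snai1, Snai2 and Zeb1, repressors of E-cadherin, in all 3 lists and that of Twist2 at 12 h alone, while Zeb2 and Twist1 had none. Of 31 regions at these 6 loci, 12 were in both TGFβ lists without vehicle (38.7%), and 1 of 13 vehicle regions was missing at 12 h. Snai1 had 6 of the 12, at a locus with 8 (vehicle), 15 (2 h) and 14 regions (12 h).

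Among 7 further epithelial transcription factors, the 5′ end of Klf4 was covered in all 3 lists, that of Foxa1 in both TGFβ lists, and that of Elf5, an ETS factor of the mammary alveolus that neighbours Ehf, at 12 h alone. The 5′ ends of Tfap2a, Tfap2c, Trp63 and Gata3 were in no region. The 7 windows held 34 regions, with 11 in both TGFβ lists without vehicle (32.4%) and 3 of 13 vehicle regions missing at 12 h. All 3 of the latter were at Elf5, whose window overlaps that of Ehf. It contains both Ehf regions missing at 12 h, so these are counted for both genes and are not separate observations.

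Target genes of these factors showed few covered 5′ ends. Of 12 genes of epithelial junctions, polarised traffic and surface proteolysis, 0 were covered in vehicle, Cdh1 (E-cadherin) at 2 h and 12 h, and Cldn4 at 12 h alone. Within 1000 bp of the start of any of their transcripts there was a region for 1 in vehicle and 3 in each TGFβ list, beside 41.8%, 47.8% and 47.7% of all protein-coding genes. The 12 windows held 133 regions, of which 35 were in both TGFβ lists without vehicle (26.3%), and 6 of 66 vehicle regions were missing at 12 h. Of the 4 genes spliced under control of the ESRP proteins, Fgfr2, Cd44 and Ctnnd1 were covered in all 3 lists and Enah in both TGFβ lists. These 4 had 20 of 43 regions in both TGFβ lists without vehicle (46.5%), and 0 of 17 vehicle regions were missing at 12 h. The shares of the 4 gene lists in both TGFβ lists without vehicle are set beside the 28.5% of all regions without a test. Their counts of vehicle regions missing at 12 h are to be read beside 8.08% of all vehicle regions, also without a test.

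The epithelial label of the line was checked in the same way. Of 10 epithelial markers, 3 had a covered 5′ end in vehicle (Krt8, Krt18 and Dsp), 4 at 2 h and 5 at 12 h, with Cdh1 and Cldn4 added, whereas Epcam, Krt7, Krt19, Cldn3 and Cldn7 were in no region. Over all protein-coding genes 35.9%, 41.4% and 41.6% of 5′ ends were covered in the same order. The epithelial counts were near these shares, and alone do not establish the label. Of 5 fibroblast, 5 immune, 4 endothelial and 3 adipocyte markers, 0 were covered in any list. Within 1000 bp of the start of any transcript, 4, 6 and 6 epithelial markers had a region in vehicle, at 2 h and at 12 h, while among the others Pdgfra of fibroblasts had one in every list. An accessible 5′ end does not measure expression, and these lists hold peaks that passed a threshold in both replicates.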

How the data were processed

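The 3 lists hold peaks of 6 ATAC-seq samples, grouped by their labels. Per the study's methods, the authors ran the ENCODE ATAC-seq pipeline, mapped reads to mm9, called peaks with MACS2 and kept those reproducible between replicates by the irreproducible discovery rate. The submitters' processing notes name MACS2 2.1.2, deepTools and mm9. As deposited by the authors, the vehicle list has a peak score from 540 to 1000 with no stated scale. The same column in the TGFβ lists numbers the lines and was not used. The lists have 52626, 100459 and 105334 lines for vehicle, 2 h and 12 h. These line counts were checked against the study's methods, and no line is missing.

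Distinct intervals of at least 150 bp were merged where the gap was under 1000 bp, in each list and again across all 3. A region belonged to a locus when it lay at most 100 kb from the outermost 5′ end of the gene in GENCODE vM1 (NCBIM37). Tfap2a and Tfap2c were matched by the older symbols Tcfap2a and Tcfap2c. A further gene chosen for the same list is not reported here. A list held a union region when at least 1 bp overlapped. Python 3.11.15, pysam 0.24.0, scipy 1.17.1 and matplotlib 3.10.9 were used, and the interval and motif functions were tested on simulated data. A count of 0 was read as up to 3 counts.

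For each gene, the rule named the region at or nearest the 5′ end, the nearest one in both TGFβ lists but not vehicle, the widest one of the 12 h list and every vehicle region missing at 12 h. Other regions were named after their values were seen. Sequences surround motif matches in those regions, away from exons. The 10 genes, the other gene lists and the motifs were chosen with earlier results of these data known. Alternatives changed the merging, minimum width, window, overlap, 5′ end, length of the TGFβ lists, start sites of other genes, width measure and motif window.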

Additional observations from a re-analysis of the deposited data

How the results depend on the processing

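Within 50 kb of the 5′ ends the number of regions was 40 in the union, 23 in vehicle, 38 at 2 h and 32 at 12 h, and 27.5% were in both TGFβ lists without vehicle. Without start sites of other genes 26 were left in vehicle and 39 at 12 h. With the TGFβ lists shortened to as many of their widest intervals as vehicle holds, 40 regions were listed at 2 h against 45 in vehicle and 46 at 12 h, 2 were in the 2 h list alone, and 6.67% were in both TGFβ lists without vehicle. There, 12.6% of all regions were. Counting only differences of at least 100 bp, 56.8% of matched regions were wider at 2 h. In the other 57 comparisons of a main value with an alternative, a count stayed within 1.5 times and a share within its interval. Of the counts for single list patterns and motifs, 13 moved by more and 56 did not. The share of vehicle regions missing at 12 h ranged from 11.6% (merging distance of 2000 bp) to 26.9% (without start sites of other genes), and over all regions it was 7.47% at 2000 bp. Of the 26 vehicle regions left without start sites of other genes, 21 were distal. Over all distal vehicle regions the share was 15.5%. The grainyhead-like motif matched in 0 distal regions within 100 bp of the centre. No paired analysis was possible because each list pools both replicates, and leaving out a replicate was not run for the same reason. The lists give no reads per peak, and the 12 h libraries were the shallowest, which limits what a region missing at 12 h can show.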
